A study of Mus musculus with 17 samples.

Results

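Antigen receptor, surface and identity genes of B cells were read in 16 mouse libraries of implanted and endogenous fat. The members are the rows of the deposited expression table with the symbols Cd79a, Cd79b, Ms4a1, Cd22, Pax5, Bank1, Cr2, Fcrla and Cd37, which are 9 of 54658 genes. All 9 were among the 17964 genes that reached 1 CPM in 2 or more libraries, where CPM is the reads of a gene scaled to a library total of 1000000. Implants were grown in hosts named LD mice, from mouse embryonic fibroblasts (MEF) placed under the skin over the sternum at 3 to 5 weeks of age, and they came to resemble fat. Surgical animals had the medial meniscus destabilized at 16 weeks of age, which leads to osteoarthritis, and the experiment ended at 28 weeks. Each code has 2 libraries.

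MWF and MWM are implants from wildtype (WT) donor cells in animals described as female and male, both with surgery. MKF and MKM are the same kinds of implant from donors with a leptin knockout (KO), described as female and male, also with surgery. EVM is endogenous visceral fat with surgery, EVFN is endogenous visceral fat without surgery, and ESM is endogenous subcutaneous fat of males with surgery. EVFY carries the genotype label Vis and its code is not spelled out, so it is read here as visceral fat of unstated treatment. WT and KO refer to the donor cells only. The design text calls the hosts male although some codes are described as female. The labels do not say whether libraries came from separate animals, whether animals were pooled, or which mice gave the endogenous fat, so every test here sees the spread from library to library alone, which may be technical.

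B cells recognise antigen through a membrane immunoglobulin that signals by way of the Cd79a and Cd79b chains. Coreceptors on the surface raise or lower this signal, and the transcription factor Pax5 keeps the cells in the B lineage. B cells gather in lymph nodes, in lymphoid clusters within visceral fat depots and, in smaller numbers, between adipocytes. Cd22 and Cd37 are also found on other leukocytes, so their transcripts need not come from B cells alone.

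Depth ranged from 16444965 to 25805502 reads, so that 1 read was worth 0.0388 to 0.0608 CPM. The labels name the tissue as ganglia, yet the summed level of 8 sensory neuron genes was 7.04 to 50.05 CPM against 9012 to 35534 CPM for 8 adipocyte genes. Cfd, a protease made by adipocytes, reached at least 5788 CPM in 7 endogenous fat libraries but only 81.8 CPM in EVFN1. The KO implants held 91.4 to 104 CPM of it, apart from MKM1 with 14068 CPM. These 2 libraries went against their labels, so they are shown singly and are left out of all means and folds below unless all 16 libraries are named. MKM is therefore represented by MKM2 alone and EVFN by EVFN2 alone, and a lone library is assumed to vary like the other groups. In MWM1 and MWM2, described as male, Xist was at 494 and 466 CPM and the Y-linked Ddx3y at 13.1 and 17.3 CPM, whereas Ddx3y was at 80.6 CPM in MKM2. Xist was at 0.223 and 0.194 CPM in EVM and at most 0.454 in ESM, but at 303 and 644 in EVFY and 273 in EVFN2. Visceral fat taken as 1 side therefore mixes libraries that differ in Xist and in surgery. The codes are thus used as names of groups, and male and female below mean only how the labels describe a group.

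The members lie on 6 chromosomes of mm10 (GENCODE M21). Cd79a is on chromosome 7 (24897381 to 24902197, plus strand) and the other members are on minus strands. These are Cd22 (chromosome 7, 30865402 to 30880342), Cd37 (chromosome 7, 45233632 to 45239115), Cd79b (chromosome 11, 106311341 to 106314762) and Ms4a1 (chromosome 19, 11249675 to 11266241). Pax5 is on chromosome 4 (44524757 to 44710487), Bank1 on chromosome 3 (136053363 to 136326066), and Cr2 (195136811 to 195176716) and Fcrla (170917576 to 170927583) are on chromosome 1. Exons of Cd37 overlap those of Tead2 on the opposite strand. The strand setting of the counting is not given in the sources used here, so reads of these genes could mix. Tead2 was at 5.50 to 18.9 CPM, below Cd37 in every library.

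Promoter sequences of 7 members were in the RefSeq table (GRCm38.p6); Cd79b and Ms4a1 were not matched. The 100 bases before the RefSeq start site are shown for the 4 members that hold a searched motif, since these include both genes that moved apart from the rest (Cd22, Cd37). Capitals mark the motif. They come from chr7:24897397-24897496 (plus strand) for Cd79a, chr7:30879029-30879128 (minus) for Cd22, chr3:136326067-136326166 (minus) for Bank1 and chr7:45238840-45238939 (minus) for Cd37. RefSeq starts differ from the GENCODE gene ends given above, so the stretches of Cd79a, Cd22 and Cd37 lie inside those gene coordinates.
Cd79a: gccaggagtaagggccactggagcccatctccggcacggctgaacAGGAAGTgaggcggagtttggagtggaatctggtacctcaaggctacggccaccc
Cd22: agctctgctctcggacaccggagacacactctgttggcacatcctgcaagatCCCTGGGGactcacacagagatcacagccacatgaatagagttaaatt
Bank1: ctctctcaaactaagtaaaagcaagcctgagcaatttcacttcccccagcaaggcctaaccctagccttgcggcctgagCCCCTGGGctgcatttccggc
Cd37: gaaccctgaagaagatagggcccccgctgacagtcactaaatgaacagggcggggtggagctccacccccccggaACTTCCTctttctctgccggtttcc

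Motifs were searched on both strands from 250 bases before to 50 after the start. CCCNNGGG, the core bound by EBF factors of B cells, occurred in Cd22 (first base at -48) and Bank1 (at -21) and in 13.7% of 32851 promoters (21.1% of the 12327 that belong to tested genes). AGGAAGT, a core bound by ETS factors such as PU.1 and chosen after the sequences were read, occurred in Cd79a (at -55) and, on the other strand, in Cd37 (at -25), and in 9.35% of promoters (10.7% of those of tested genes). ATGCAAAT, the octamer bound by Oct factors, was in none of the 7 windows and in 1.74% of all (1.61% of those of tested genes). No member window held more than 1 motif, so none overlapped. A match describes the letters only.

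Every member was highest in MWF1, then in MWF2, then in MKF1. Cd79a, a signalling chain of the antigen receptor, stood at 271 CPM (MWF1) and 146 CPM (MWF2). It was at 46.6 and 1.16 CPM in MKF1 and MKF2, 6.62 in MKM2 and 3.05 and 11.6 in MWM1 and MWM2. Over the 7 endogenous fat libraries it ran from 1.19 (ESM1) through a median of 4.71 to 10.7 CPM (EVM1). The WT implants coded MWF thus stood above every other library, and the MKF pair spanned the range of all the rest, MKF2 being the lowest of the 16. Its partner chain Cd79b was at 148 and 74.9 CPM in MWF, 28.5 and 4.46 in MKF, 5.80 in MKM2, 2.40 and 4.46 in MWM, and 0.968 to 7.81 (median 3.51) in endogenous fat. MKF2 and MWM2 had the same level of Cd79b to 3 digits, and both lay within the endogenous range.

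Cr2, the complement receptor CD21, which lowers the threshold for B cell activation, was the rarest member in 15 of 16 libraries per kilobase of exon. It was at 58.4 and 33.6 CPM in MWF and at 4.73 in MKF1, and at no more than 1.37 CPM elsewhere, with 2 reads in ESM2. Fold changes of Cr2 against fat therefore rest on few reads. Ms4a1, the surface protein CD20, was at 115 and 66.6 CPM in MWF, 16.6 and 0.773 in MKF, 2.29 in MKM2, 0.846 and 2.54 in MWM, and 0.228 to 4.63 (median 1.47) in endogenous fat. Pax5 was at 144 and 72.6 CPM in MWF, 25.8 and 0.816 in MKF, 3.87 in MKM2, 0.799 and 3.44 in MWM, and 0.285 to 4.63 (median 1.97) in endogenous fat. Fcrla, an intracellular relative of Fc receptors found in B cells, was at 56.8 and 31.4 CPM in MWF, 6.43 and 0.816 in MKF, 1.83 in MKM2, 0.611 and 1.36 in MWM, and 0.284 to 2.96 (median 1.76) in endogenous fat. For each of these 4 genes MKF1 came next after the MWF pair and MKF2 lay inside the range of endogenous fat.

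Bank1, an adaptor that couples the B cell receptor to calcium release, was lower in 4 implant libraries than in any of the 7 endogenous ones. It was at 87.9 and 45.7 CPM in MWF, 13.8 and 3.39 in MKF, 3.82 in MKM2 and 3.76 and 5.03 in MWM, whereas endogenous fat had 6.30 to 10.8 CPM (median 7.25). All 7 endogenous libraries thus exceeded MKF2, MKM2 and both MWM libraries. Cd22, an inhibitory receptor that binds sialic acid, was at 135 and 90.3 CPM in MWF, 47.8 and 20.8 in MKF, 20.0 in MKM2 and 4.89 and 4.97 in MWM. In visceral fat it was at 2.55 to 10.5 CPM (median 4.15, n = 5) and in ESM at 0.567 and 0.626. The 3 KO implants lay between MWF and all endogenous fat. Cd37, a tetraspanin of leukocytes abundant on B cells, was at 205 and 140 CPM in MWF, 108 and 105 in MKF, 86.6 in MKM2, 24.1 and 27.2 in MWM, and 21.2 to 36.4 (median 24.7) in endogenous fat. The KO implants again lay between MWF and the rest, and the MKF pair differed by 1.03 times, against 40.2 times for Cd79a.

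**Figure D1:**
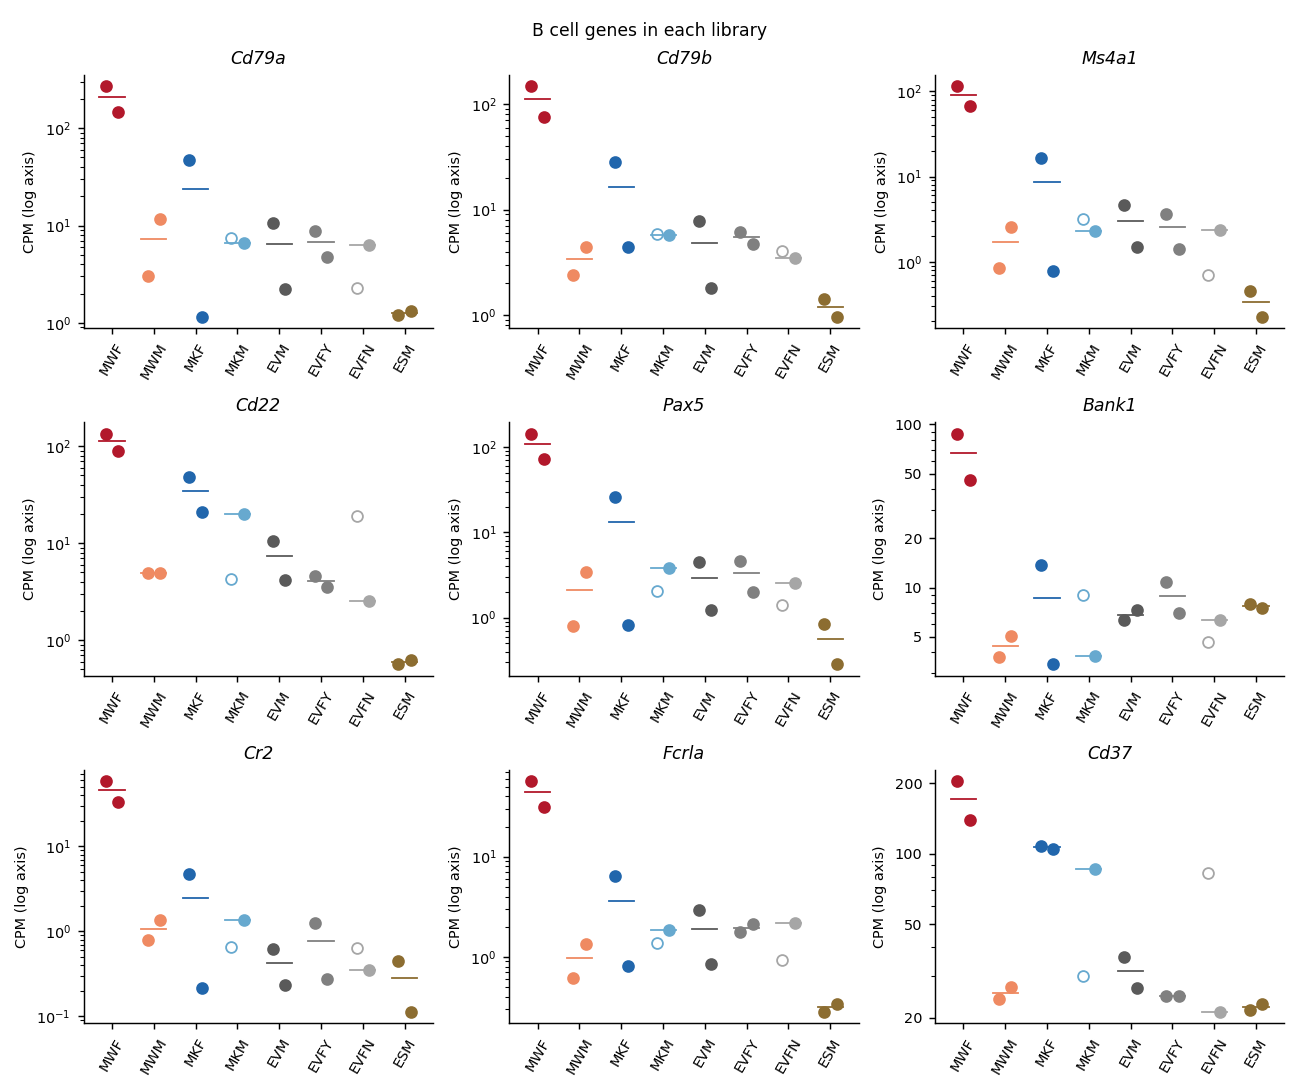
CPM of each of the 9 genes (log axis) by group code, with replicate 1 left and replicate 2 right, lines at group means and open circles for MKM1 and EVFN1, which enter no mean. MWF is highest in every panel, and MKF2 falls to the level of endogenous fat or below for 7 genes but not for Cd22 and Cd37.

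Per kilobase of exon, MWF had the order Cd79a (143 ± 60.4 CPM per kb, SD, n = 2), Cd79b (78.0 ± 36.3), Cd37 (48.9 ± 12.9), Fcrla (25.3 ± 10.3), Cd22 (22.3 ± 6.25), Ms4a1 (14.7 ± 5.55), Pax5 (12.2 ± 5.73), Bank1 (8.92 ± 3.99) and Cr2 (5.67 ± 2.16). Neighbours in this order overlapped within 1 SD except Cd37 and Fcrla, and both libraries gave the same order. In endogenous fat Cd37 was first, at 7.23 ± 1.47 CPM per kb (n = 7), ahead of Cd79a at 3.46 ± 2.58, which overlapped it within 1 SD. Cd37 led in all 7 of these libraries. In ESM Bank1 was second, at 1.03 ± 0.0400 CPM per kb (n = 2), against Cd79a at 0.858 ± 0.0576.

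All 9 members were higher in the WT implants coded MWF than in those coded MWM, with no overlap between the libraries. MWF lay wholly above MWM for 43.8% of all 17964 tested genes too, so with 2 libraries a side such a gap is common. The genes rose by 2.704 (Cd37) to 5.51 (Pax5) in log2(CPM + 0.5), a scale that shrinks the folds of weakly expressed genes, with a median of 4.85 against 0.18 over all tested genes. In this comparison 12.2% of all tested genes rose (limma with Benjamini-Hochberg adjustment, adjusted p under 0.05). Cd37 rose by 2.704 (SE 0.20, adjusted p = 0.00092) and Cd22 by 4.35 (SE 0.46, adjusted p = 0.0015, limma). Cd79a, whose MWM libraries differed 3.79 times, rose by 4.93 with the widest error (SE 1.36, adjusted p = 0.0445, limma). Fewer B cells in the tissue and less of these RNAs per cell cannot be told apart in such bulk libraries. The count was 5 without MWF1, 4 without MWM1 and 5 without MWM2, and Bank1, Cd22, Cd37 and Fcrla passed in each of the 14 fits that left out a library. Beside this, 14 of 14 T cell genes and 7 of 8 tested genes of lymph node stroma, follicular dendritic cells and high endothelial venules were also higher in MWF, and 0 of 8 macrophage genes passed in either direction. The stroma list shares Fcer2a with the B cell signalling list read below and also holds the lymphotoxin genes Ltb and Lta. It is thus not separate from genes of B cells and other lymphocytes and does not measure stroma alone. The summed T cell list was at 679 and 800 CPM in MWF and at 38.2 and 42.3 CPM in MWM. The part of whole lymphoid tissue in the result was not tested.

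In the groups described as female, KO implants had less of the B cell genes than WT implants. MKF lay below MWF for all 9 members, as it did for 45% of all tested genes. Past the threshold 6 of 9 fell, where 10.4% of all tested genes fell (limma, BH). The 6 were Bank1 (-3.10, SE 0.55, adjusted p = 0.00747), Cr2 (-4.54, SE 0.83, adjusted p = 0.00835), Fcrla (-3.82, SE 0.74, adjusted p = 0.0106), Ms4a1 (-4.24, adjusted p = 0.0294), Cd22 (-1.79, SE 0.46, adjusted p = 0.0325) and Cd79b (-3.14, adjusted p = 0.0349). Cd79a (-4.50, 95% interval -7.57 to -1.42, adjusted p = 0.053), Pax5 (-4.13, adjusted p = 0.052) and Cd37 (-0.66, interval -1.11 to -0.22, adjusted p = 0.0512) missed it in limma. The median of the 9 was -3.82, against -0.20 over all tested genes. The MKF libraries differed between themselves by a median of 7.88 times over the members, MKF1 being higher for all 9, whereas the MWF libraries differed by 1.46 to 1.99 times. The count of 6 became 0 without MWF1, 2 without MKF2 and 2 with edgeR on the recovered reads (Bank1 and Fcrla), where 6.11% of all tested genes fell. In the same comparison 13 of 14 T cell genes fell and 7 of 8 macrophage genes rose, and the part of these cells in the fall was not tested.

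In the groups described as male the KO library MKM2 had a positive fold over MWM for 8 of 9 members, but Cd37 alone rose past the threshold (1.74, SE 0.24, adjusted p = 0.0234, limma), where 1.32% of all tested genes rose. Cd22 had a larger fold with more error (1.91, SE 0.57, 95% interval 0.63 to 3.20, adjusted p = 0.162, limma). The other 7 lay between -0.17 (Bank1) and 0.95 (Pax5), and the interval of Cd79a ran from -3.65 to 3.89, so its direction was not resolved at this number of libraries. With all 16 libraries, which adds both MKM1 and EVFN1, no member passed (0% of all tested genes rose), and the fold of Cd37 was 0.98 (adjusted p = 0.472, limma). The call of Cd37 was also lost without MWM1, MWM2, MKF1 or MKF2, where the count of members was 0.

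The KO effect in the male groups minus that in the female groups was positive for all 9 members, from 2.40 (Cd37) to 5.08 (Pax5). It passed for Cd37 alone (2.40, SE 0.31, adjusted p = 0.0326, limma), where 0.551% of all tested genes passed in that direction, and Cd22 missed it (3.70, SE 0.73, adjusted p = 0.0619). With edgeR no gene of the table passed (0%), while 2521 of 17964 had an unadjusted p under 0.05, and Cd37 had an adjusted p of 0.0734. The count of members was 8 without MKF1, 2 without EVM1 or EVM2, and 0 without MWM1, MWM2, MKF2, EVFY1, EVFY2, ESM1 or ESM2. Median-of-ratios scaling and the fit of all 16 libraries, where 1.2% of tested genes passed in that direction, also gave 0.

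Averaged over both codes, KO implants (MKF, MKM2) and WT implants (MWF, MWM) overlapped for all 9 members. Only Bank1 passed, lower by 1.63 (SE 0.43, adjusted p = 0.0459, limma), where 4.1% of all tested genes fell, and no member rose, where 6.67% did. Cd37 was at 99.96 ± 11.7 CPM in KO (n = 3) and 99.0 ± 88.7 in WT (n = 4), with a fold of 0.54 (SE 0.16, adjusted p = 0.0606, limma). Cd22 was at 29.5 ± 15.9 and 58.8 ± 64.8 CPM, with a fold of 0.06 (SE 0.37, adjusted p = 0.931, limma). At an unadjusted p under 0.05, 4 members differed, and edgeR called 0 (9.76% of all tested genes in either direction). The count was 6 without MKF1, and it was 0 without MWM1, MWM2, MKF2, EVFY1, EVFY2, ESM1 or ESM2 and 0 with all 16 libraries (1.72% of all tested genes).

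Against visceral fat the KO implants were higher in Cd22 and Cd37 and in no other member. Cd22 averaged 29.5 ± 15.9 CPM (SD, n = 3) in KO implants and 5.08 ± 3.15 (n = 5) in visceral fat, a rise of 2.47 (SE 0.36, adjusted p = 0.00179, limma with BH). Cd37 was at 99.96 ± 11.7 against 26.8 ± 5.73 CPM, a rise of 1.90 (SE 0.15, adjusted p = 0.000132, limma). For these 2 genes the groups did not overlap, as for 20% of all tested genes with KO implants above, and 16.3% of all tested genes rose in this comparison. The other 7 members lay between -0.44 (Bank1) and 0.98 (Cr2), each with overlapping groups. Both calls held in edgeR (adjusted p = 0.00206 and 0.000213, 15.4% of all tested genes higher) and in all 12 fits that left out a library, and Cr2 joined them without MKF2. With all 16 libraries as labelled no gene of the table passed in limma (0%), while 2077 of 17964 had an unadjusted p under 0.05, and Cd22 and Cd37 each had an adjusted p of 0.431.

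WT implants were higher than visceral fat in 5 of 9 members, where 15.8% of all tested genes rose, although MWM brought the groups into overlap for all 9. Those that rose were Cd37 (1.36, SE 0.14, adjusted p = 0.000632), Cd22 (2.40, SE 0.32, adjusted p = 0.00162), Cr2 (3.11, SE 0.57, adjusted p = 0.00705), Cd79b (2.09, SE 0.57, adjusted p = 0.0322) and Fcrla (1.69, SE 0.51, adjusted p = 0.0436, all limma). MWM alone had Cd37 at 24.1 and 27.2 CPM, inside the visceral range of 21.2 to 36.4. The count was 3 without MWF1, MWM1, MWM2, EVM2, EVFY1 or EVFY2 and 9 without MKF1 or MKF2. With all 16 libraries Cd22 and Cd37 missed the threshold (adjusted p = 0.053 and 0.102, limma) and Ms4a1 passed, among 8.03% of all tested genes. The comparisons with visceral fat share its 5 libraries, and those between implants share MWF or MWM.

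**Figure D2:**
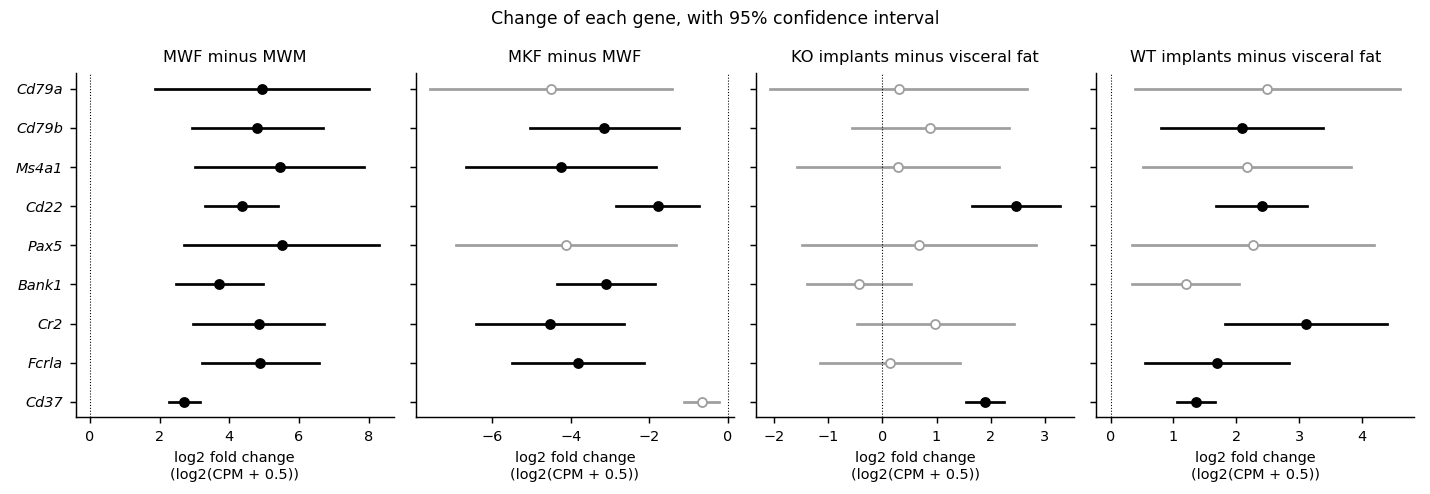
Log2 fold change of each gene on the log2(CPM + 0.5) scale in 4 comparisons, with 95% confidence intervals from limma; filled black points have an adjusted p under 0.05 and open grey ones do not. All 9 are filled for MWF minus MWM, 6 for MKF minus MWF, Cd22 and Cd37 for KO implants minus visceral fat, and 5 for WT implants minus visceral fat.

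Visceral fat exceeded subcutaneous fat in Cd22, at 5.08 ± 3.15 CPM (n = 5) against 0.597 ± 0.0419 (n = 2), a rise of 2.08 (SE 0.39, adjusted p = 0.047, limma), where 0.568% of all tested genes rose. The groups did not overlap for 6 of 9 members, namely Cd79a, Cd79b, Ms4a1, Cd22, Pax5 and Fcrla, of which 5 missed the threshold. Visceral fat lay wholly above subcutaneous fat for 7.05% of all tested genes. Cd79a was at 2.25 to 10.7 CPM in visceral fat and at 1.19 and 1.31 in ESM (1.88, SE 1.15, adjusted p = 0.658, limma). Bank1 and Cd37 were at nearly the same level in both depots (-0.10, 95% interval -1.15 to 0.96, and 0.19, interval -0.19 to 0.57). Cd22 passed in 5 of 13 fits that left out a library, with 0 members without MWF1, MWF2, MWM1, MWM2, EVFY1, EVFY2, ESM1 or ESM2, and edgeR gave it an adjusted p of 0.0669, with 0.362% of all tested genes higher. Only 10 and 11 reads of Cd22 lay behind the ESM values. ESM is male with surgery, whereas the visceral side also holds libraries with high Xist and without surgery or of unstated treatment. Depot, sex and surgery thus cannot be told apart in this comparison. EVM alone, with surgery and low Xist like ESM, had Cd22 at 10.5 and 4.15 CPM.

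Read counts relative to Cd79a in the same library show which members kept step with the antigen receptor. Ms4a1 stayed at 0.174 to 0.667 reads per read of Cd79a over the 14 libraries and Pax5 at 0.217 to 0.714. The partner chain Cd79b stayed at 0.385 to 1.19 apart from 3.85 in MKF2. Cd22 did not: it was at 0.498 and 0.617 reads in MWF, 0.476 and 0.478 in ESM, and 1.03, 17.9 and 3.02 in MKF1, MKF2 and MKM2. In MKF2 the exact 95% counting interval was 12.2 to 27.5, on 27 reads of Cd79a. Cd37 was at 0.755 and 0.957 in MWF, 2.33 in MKF1, 13.1 in MKM2 and 90.5 in MKF2 (interval 62.1 to 138), and at 2.81 to 18.1 in endogenous fat. Bank1 was at 0.325 and 0.312 in MWF and 0.297 in MKF1, but at 6.67 and 5.74 in ESM. Relative to Cd79a, Cd22 and Cd37 were thus highest in MKF2 and Bank1 in ESM. Cd79b, Ms4a1 and Fcrla (0.704) also had their highest ratios in MKF2 among the 14 libraries. MKF2 had the lowest Cd79a of all, so a high ratio there is not particular to Cd22 and Cd37.

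**Figure D3:**
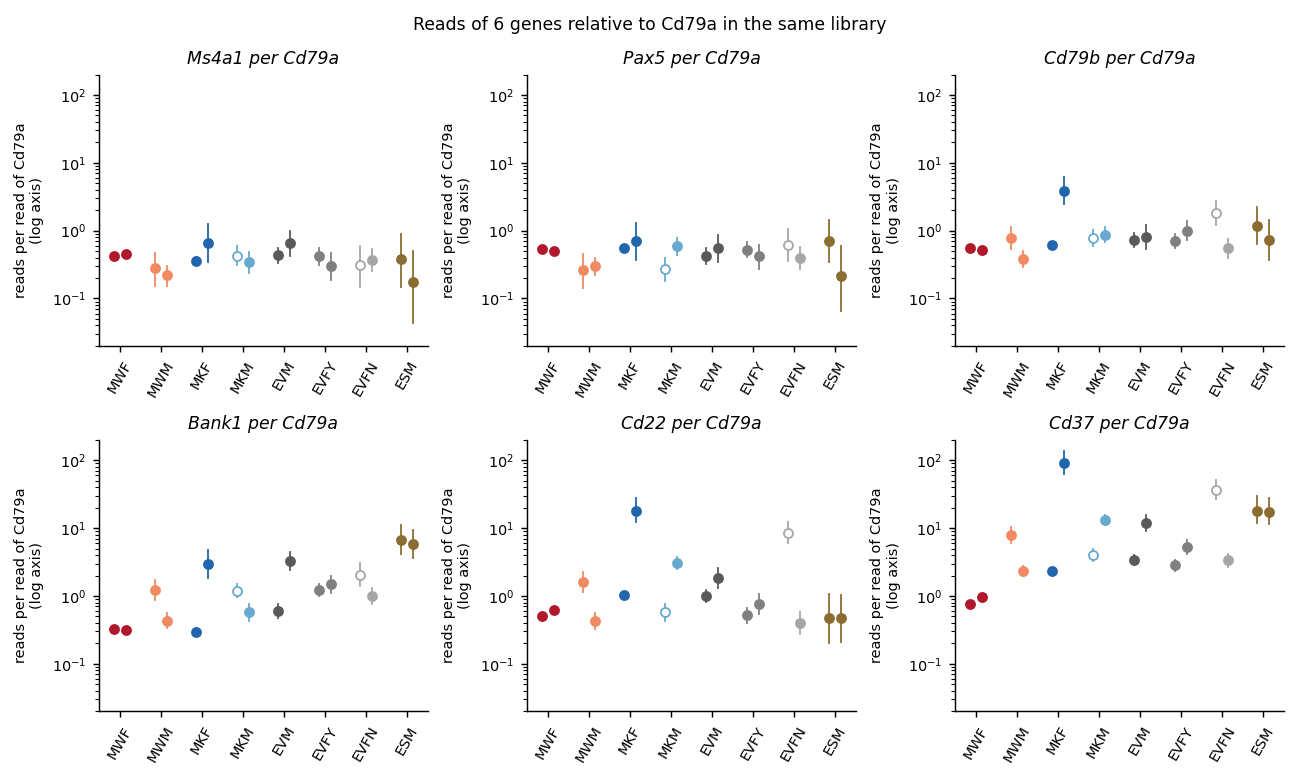
Reads of 6 genes per read of Cd79a in each library (log axis) by group code, with exact 95% counting intervals and open circles for MKM1 and EVFN1. Ms4a1 and Pax5 stay in a narrow band, while Cd22 and Cd37 reach 17.9 and 90.5 in MKF2 and Bank1 reaches 6.67 in ESM1.

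Macrophage genes were high in the KO implants, where Cd22 and Cd37 exceeded endogenous fat, but Cd68 was low in MWF, where both members were highest. Cd68, a lysosomal protein of macrophages, was at 720 and 843 CPM in MKF and 632 in MKM2, at 78.6 and 62.7 in MWF, 164 and 110 in MWM and 48.9 to 247 in endogenous fat. In KO implants against visceral fat, 6 of 8 macrophage genes rose (first of the list Adgre1 and Cd68) and Cd163 fell, and 5 of 5 leukocyte genes rose, with Ptprc and Coro1a first of that list. The summed macrophage list was at 2144 to 2772 CPM in KO implants and at 809 to 1205 CPM in visceral fat. Over the 12 libraries without MWF, Pearson's r with Cd68 on log2(CPM + 0.5) was 0.93 for Cd37, 0.86 for Cd22 and 0.22 for Cd79a. With MWF included (14 libraries) these were 0.43, 0.37 and -0.12. Libraries share tissue type and fall into groups in these descriptions. Cd37 per 100 reads of Ptprc, the leukocyte protein CD45, stayed at 36.4 to 74.4 over all 16 libraries, while Cd79a ranged from 0.822 to 55.9. The part of macrophages in the levels of Cd22 and Cd37 was not tested.

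**Figure D4:**
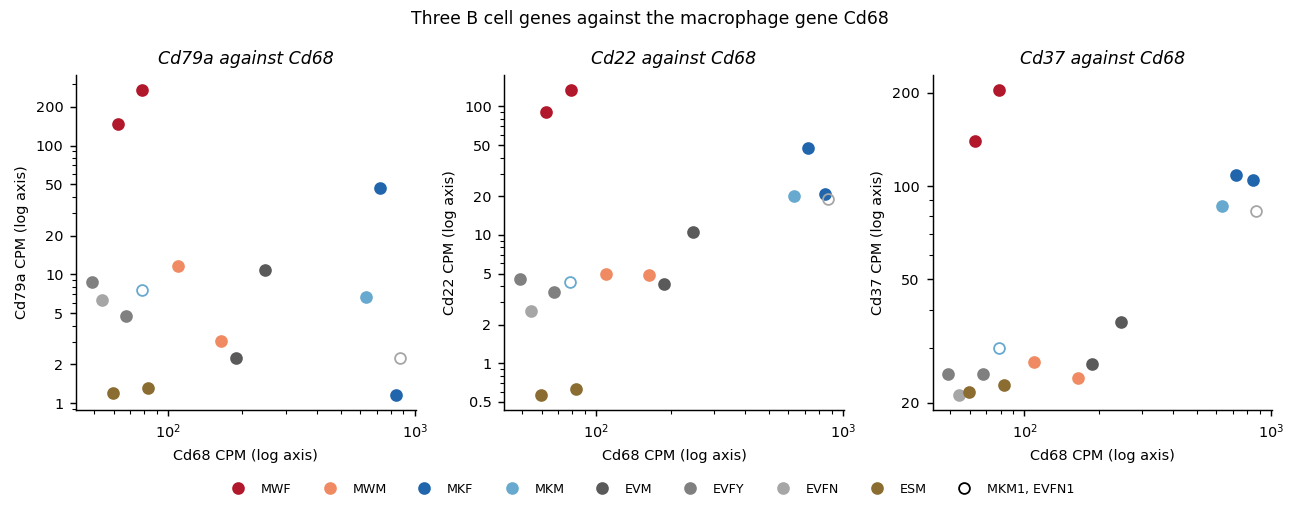
CPM of Cd79a, Cd22 and Cd37 against CPM of Cd68 in each library, both axes logarithmic, coloured by group code with open circles for MKM1 and EVFN1. Away from the 2 MWF libraries, Cd22 and Cd37 are high where Cd68 is high, up to 47.8 and 108 CPM in MKF1, and Cd79a spreads from 1.16 to 46.6 CPM in the MKF pair alone.

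Genes whose pattern over the 14 libraries was most like the mean of the members other than Cd37 included Tnfrsf13c (r = 0.991), the receptor for the B cell survival factor BAFF, Gpr18, H2-Ob, Btla, Zfp831, Lef1, Spib, Pou2af1 and Ikzf3 (r = 0.986). The nearest to Cd79a and to Pax5 included Fcmr and Spib. Those nearest to Cd22 were Ptpn22, Sash3 and Bin2, and those nearest to Cd37 were Dok3, Snx20 and Rgs14. Without MWF (12 libraries) the genes nearest to Cd37 became Snx8, Grn and Stard3. The 14 libraries share 8 groups, and the MWF pair stands far from the others in all of these genes.

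Other B cell genes were read from a list of 24 for receptor signalling, all tested. Between MWF and MWM 22 of the 24 rose, including the adaptor Blnk (1.15, SE 0.30, adjusted p = 0.0387, limma). Between MKF and MWF 11 of the 24 fell and Pik3ap1 and Cd180, chosen after their values were seen, rose. Blnk was at 103 and 106 CPM in MKF and 86.2 in MKM2, above 70.7 and 43.8 in MWF and 8.09 to 35.7 in endogenous fat, and rose by 2.61 in KO implants against visceral fat (SE 0.23, adjusted p = 0.000196, limma). In that comparison 12 of the 24 rose and Ebf1, which adipocyte precursors also express, fell. Between KO and WT implants 6 rose and 0 fell. Like Cd22, Blnk was higher in the 3 KO implants than in any of the 7 endogenous libraries.

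Genes of B cell stages and of lymphoid tissue gave further values beside the members. Of 6 tested germinal centre genes 3 rose in MWF against MWM. Bcl6 was at 38.4 to 126 CPM in all libraries. Of 8 plasma cell genes 6 rose, led in the list by Jchain (472 and 385 CPM in MWF, 19.5 and 29.8 in MWM) and Mzb1. Of 6 early precursor genes 3 were tested and Vpreb3 rose, while Vpreb1 and Igll1 were at most 0.365 and 0.11 CPM. Rag1, the recombinase of B and T cell precursors, chosen after its values were seen, was at 159 CPM in MWF2, 12.8 in MKM2 and at most 0.0483 CPM in the other libraries, MWF1 included. It made up most of the summed precursor list in MWF2 and MKM2, so that list does not mark B cell precursors alone. The thymocyte gene Ptcra was at 4.20 CPM in MWF2 and 0 in MWF1. All 5 listed thymus genes had reads in MWF2 and MKM2, whereas in every other library 2 or 3 of them had none. Of the 2 tested thymus genes 0 passed, and 1 of these, Cd1d1, was at 103 to 338 CPM throughout. The part of thymus tissue in MWF2 and MKM2, and in their T cell reads, was not tested. The 2 MWF libraries thus shared the 9 members but differed in precursor and thymus genes.

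Several genes of the stroma list and T cell genes were high beside the members in MWF. Cxcl13, the chemokine that draws B cells into follicles, was at 32.9 and 59.2 CPM in MWF and 26.0 and 36.1 in ESM, and at most 16.7 elsewhere. Ccl19 was at 7.23 and 7.24 CPM in MWF and at most 2.06 elsewhere. Glycam1, a protein of high endothelial venules chosen after its values were seen, was at 58.5 and 17.8 CPM in MWF, 12.4 in MKF1 and at most 0.734 in the others. Cd3e was at 48.5 and 48.6 CPM in MWF and at most 4.49 elsewhere, with Cd3d at 29.7 and 27.1 CPM in MWF. The summed T cell list divided by the sum of 6 members (all but Cd22, Cd37 and Bank1, left out after their values were seen) was 0.856 and 1.88 in MWF, 1.16 in MKF1, 10.4 in MKF2 and 6.50 in MKM2. Reads of the T cell list per member read were thus highest, among the implants, in MKF2 and MKM2. Cd3e per read of Cd79a was also highest in these among the implants, but with a smaller gap. It was 0.630 in MKF2 and 0.446 in MKM2, against 0.179 and 0.332 in MWF. Il7r, chosen after its values were seen, did not fall in MKF against MWF (0.081, SE 0.47), whereas every other gene of the list fell. The list sum thus does not follow Cd3e alone.

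**Figure D5:**
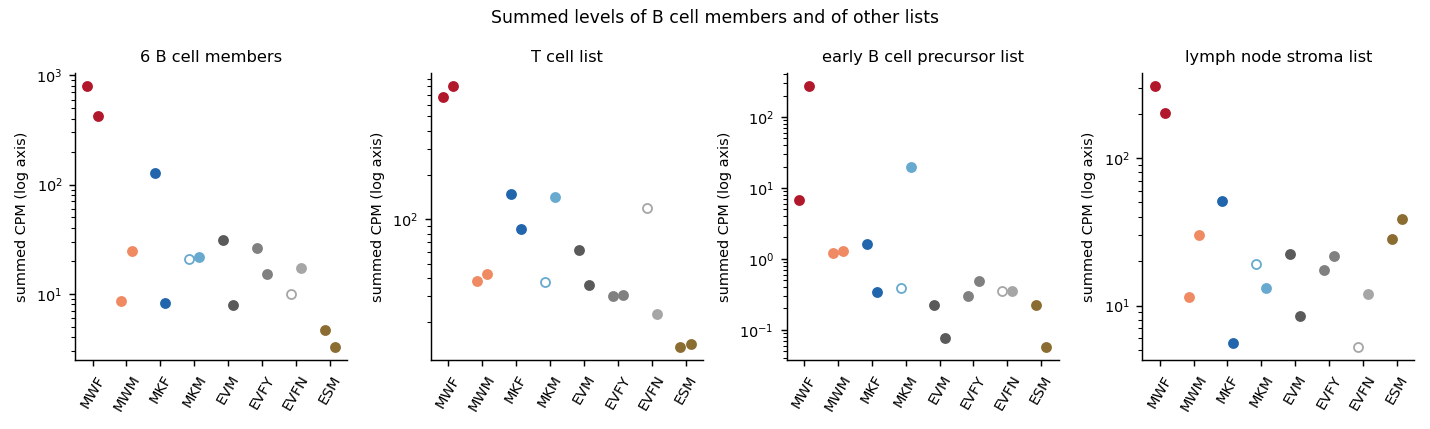
Summed CPM (log axis) of 6 B cell members (without Cd22, Cd37 and Bank1), the T cell list, the early B cell precursor list and the lymph node stroma list in each library, with open circles for MKM1 and EVFN1. The stroma list includes the lymphotoxin genes Ltb and Lta, and Fcer2a, which is also in the B cell signalling list. MWF is highest for the members, the T cell list and the stroma list, and the precursor list is high in MWF2 (270.4) and MKM2 (19.4) but not in MWF1 (6.75). Rag1, a gene of B and T cell precursors, makes up most of the precursor sum in MWF2 and MKM2. That list thus does not mark B cell precursors alone.

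The 2 libraries left out of the means were read singly. EVFN1, labelled as visceral fat, had Cd22 at 19.2 and Cd37 at 83.1 CPM, above the visceral range and just below the lowest KO implant, MKM2. Its Cd79a was at 2.26, Cd79b at 4.06, Ms4a1 at 0.696, Pax5 at 1.39, Bank1 at 4.64, Cr2 at 0.638 and Fcrla at 0.928 CPM. MKM1, labelled as a KO implant, had Cd22 at 4.30 and Cd37 at 30.0 CPM, below all other KO implants. All 9 members of MKM1 lay inside the visceral range, with Cd79a at 7.49, Cd79b at 5.84, Ms4a1 at 3.20, Pax5 at 2.04, Bank1 at 8.98, Cr2 at 0.661 and Fcrla at 1.38 CPM. Cd68 was at 872 CPM in EVFN1 and 78.5 in MKM1.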

How the data were processed

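RNA was sequenced in 16 libraries of 8 group codes; ESF, a further labelled sample, was not used here. The submitters' processing notes name STAR 2.5.4, Subread 1.6.3 with featureCounts, cutadapt 2.7 and FastQC 0.11.4, and the build mm10, without settings. Strand, annotation and filters of the counting: not given in the sources used here. The authors deposited CPM values, each library summing to 1000000 with no further scaling. All values were whole multiples of 1 read (100%, tolerance 0.001 reads), so reads were recovered.

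limma 3.58.1 (R 4.3.3, trend, robust) was fitted to log2(CPM + 0.5) of 17964 genes (1 CPM or more in 2 or more libraries), as 8 group means over 14 libraries (6 residual degrees of freedom), without EVFN1 and MKM1. Sides are equally weighted group means. P-values were adjusted by Benjamini-Hochberg over all tested genes, threshold 0.05. The members, lists and comparisons were chosen with earlier results of these data known. The 9 members are always named, with the first 2 genes in the table from each other list and, by correlation, the 10 genes most like the members and 3 most like single ones. A few genes that this rule names are not reported here. Alternatives were pseudocounts 0.1 and 2, no filter, median-of-ratios scaling, edgeR 4.0.16 on recovered reads, all 16 libraries, a replicate block and leaving out each library. No batch is labelled. Chi-square of reads within groups was 22.3 to 214 per degree of freedom, so libraries of a group differed by more than counting error. The largest values, 214 in EVFN and 184 in MKM, were of the groups that hold EVFN1 and MKM1. Such values do not tell whether libraries came from separate animals or separate preparations. Counting intervals cover counting error only. The fit was tested on simulated data.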

Additional observations from a re-analysis of the deposited data

Results flagged for a closer look

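Cd37 is singled out because it alone passed the threshold for a KO effect that differed between implant groups described as male and as female. The difference, male minus female, was positive for all 9 members and smallest for Cd37. For Cd37 it was 2.40 on the log2(CPM + 0.5) scale (SE 0.31, 95% interval 1.70 to 3.11, adjusted p = 0.0326, limma with Benjamini-Hochberg adjustment). Behind it lie 24.1 and 27.2 CPM in MWM and 86.6 in MKM2, against 205 and 140 in MWF and 108 and 105 in MKF. The adjusted p over the fits that left out a library was 0.0219 to 0.128, and edgeR gave 0.0734. The male KO side is 1 library, and the labels of the MWM pair go against their Xist levels, so a difference between sexes and a difference between these libraries cannot be told apart. Groups here hold 1 or 2 libraries, so no library could be tested as an outlier within its group.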

How the results depend on the processing

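Of 26 changes of a member past the threshold, 5 stayed past it in every alternative that gave a value: Bank1, Cd22, Cd37 and Fcrla between MWF and MWM, and Cr2 between WT implants and visceral fat. Of 1449 alternative values 20 had the other direction, none of them of a change past the threshold. The counts of members past the threshold changed by over 1.5 times as follows, and the cause was not tested. For KO against WT implants (1) the count was 0 with pseudocount 0.1, without the filter, in edgeR, with all 16 libraries and with the replicate block, and 2 with pseudocount 2. For the female groups (6) it was 2 in edgeR, and for the male groups (1) it was 0 with all 16 libraries. For the difference between these it was 1, against 0 with pseudocount 0.1, median-of-ratios scaling, edgeR and all 16 libraries, and 2 with pseudocount 2 and with the replicate block. For WT implants against visceral fat (5) it was 8 with pseudocount 2, for KO implants against visceral fat (2) it was 0 with all 16 libraries, and for visceral against subcutaneous fat (1) it was 0 with pseudocount 2, without the filter, in edgeR and with all 16 libraries. Leaving out each library gave 0 to 6 (KO against WT), 0 to 8 (female), 0 to 1 (male), 0 to 8 (difference), 4 to 9 (MWF against MWM), 3 to 9 (WT implants against visceral fat), 2 to 3 (KO implants against visceral fat) and 0 to 1 (visceral against subcutaneous). Without MKM2 or EVFN2 the comparisons that need those groups gave no value.

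In log2, values that changed direction were the following. In the male groups Cd79a was -0.0053 with median-of-ratios scaling and -0.26 in edgeR, Bank1 0.40 with all 16 libraries and 0.076 with the replicate block, and Cr2 -0.073 with all 16 libraries. Between KO and WT implants Cd22 was -0.037 with pseudocount 2 and -0.46 with all 16 libraries. Over the fits leaving out a library, male groups ranged from -0.76 to 1.00 for Cd79a, -0.12 to 1.05 for Ms4a1 and -0.36 to 0.020 for Bank1, and Cd22 between KO and WT implants from -0.23 to 0.36. For KO implants against visceral fat these ranges were -0.90 to 1.51 (Cd79a), -0.65 to 1.22 (Ms4a1), -0.41 to 1.75 (Pax5), -0.47 to 0.73 (Fcrla) and -0.91 to 0.030 (Bank1), and for Bank1 between depots -0.19 to 0.0032.

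Same-numbered libraries of 6 groups were correlated in their deviations at -0.44 to 0.34 (median -0.05), with 7 of 15 pairs above 0.1. These values do not settle whether the numbers pair some of the samples, and the main fit used no pairing. With the replicate block the female count was 7, and Pax5 passed (adjusted p = 0.0425, limma). At this depth a member at 0.114 CPM is 2 reads, so changes of Cr2, Ms4a1 and Fcrla in subcutaneous fat are poorly determined.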
